A study of Mus musculus with 5 samples.

Results

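The genes described here are 9 components and regulators of the complement system: the C1q chain genes C1qa, C1qb and C1qc, the C1 protease genes C1ra and C1s1, the central component gene C3, its relative C4b, the factor B gene Cfb, and Serping1, which encodes the C1 inhibitor. They were chosen by symbol, joined to the Ensembl identifiers of the count files, and are 9 of the 46983 genes listed. All 9 passed the low-count filter and so belong to the 14580 genes tested. RNA was sequenced from cells sorted as tumour-associated macrophages (CD45+ CD11b+ Ly6G- F4/80+) out of orthotopic EO771 tumours, a mouse mammary carcinoma, in mice of the strain given as C57/BL6. There were 2 Treg-ablated libraries, from tumours of mice given diphtheria toxin in 2 doses of 50 µg per kg to remove regulatory T (Treg) cells and sorted on day 4, and 3 control libraries from untreated tumours. Because the controls received no toxin, an effect of the toxin and one of Treg loss cannot be told apart. The labels name no toxin receptor allele and give no day of sorting for the controls, so that day may differ between the groups. They also leave unsaid whether each library is a different animal; p-values here cover library-to-library spread only, and that spread may be technical.

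Complement is a cascade of plasma and tissue proteins that tags microbes, dying cells and immune complexes for removal. In the classical pathway C1q binds the target, the proteases C1r and C1s attached to it cleave C4 and C2, and the enzyme so formed cleaves C3. Factor B serves the alternative pathway, and C1 inhibitor blocks C1r and C1s. Liver makes most plasma complement, but C1q comes mainly from macrophages and related myeloid cells, while C1r, C1s, C3 and C1 inhibitor are also made by fibroblasts and many other cells.

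The libraries held between 13122668 and 20156835 counts. Foxp3, which defines Treg cells, had 1 and 5 counts in Treg-ablated and 3, 9 and 3 in control libraries, too few to check the ablation. Ptprc (CD45) ranged from 22.1 to 33.0 CPM (counts scaled to a common effective library size). Adgre1 (F4/80) ranged from 5.73 to 9.87 CPM and Itgam (CD11b) from 12.2 to 19.0 CPM. The fibroblast collagen gene Col3a1 ranged from 7467 to 9556 CPM, but it was by far the highest of the fibroblast markers listed. Values of the others ran from 1.81 CPM (Fap) to 1422 CPM (Col6a3), with Pdgfra at 77.7 to 101 CPM. The level of Col3a1 is therefore no measure of the fibroblast share. Of the exon bases of Itgam 68.7% also belong to the annotated gene Gm49368 on the same strand, so its level may be understated. The 12 epithelial and tumour genes listed summed to 302 and 260 CPM in Treg-ablated and 293 to 318 CPM in control libraries. Most of this came from the keratin genes Krt18, at 180 to 222 CPM, and Krt8, at 75 to 90 CPM. Only 4 of these 12 genes passed the low-count filter. Ly6g, which the gate excluded, had at most 3 counts. The libraries therefore cannot be taken as macrophages alone, and in such bulk samples fewer cells of a type and less RNA per cell cannot be told apart. Of 5 hepatocyte genes none was tested, and Alb (albumin) had 0 and 0 counts in Treg-ablated and 1, 0 and 0 in control libraries.

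The C1q chains fell by about the same amount after Treg ablation, C4b fell as much, C3 fell less, and C1s1 was slightly higher. Of the 9 members 5 passed as lower, against 12.3% of all genes tested, and 1 as higher, against 13.5%, at an adjusted p under 0.05 (edgeR quasi-likelihood test, Benjamini-Hochberg adjustment). The median log2 fold change was -0.55 over the members and -0.01 over all genes tested. In 5 members every Treg-ablated library lay below every control library, and in 2 every one lay above, patterns that 25.6% and 26.9% of all genes tested also showed. Tested against a fold of 1.5, C1qa, C1qc and C4b still passed as lower, which 0.158% of all genes did, while C1qb, C3 and C1s1 did not pass.

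**Figure D1:**
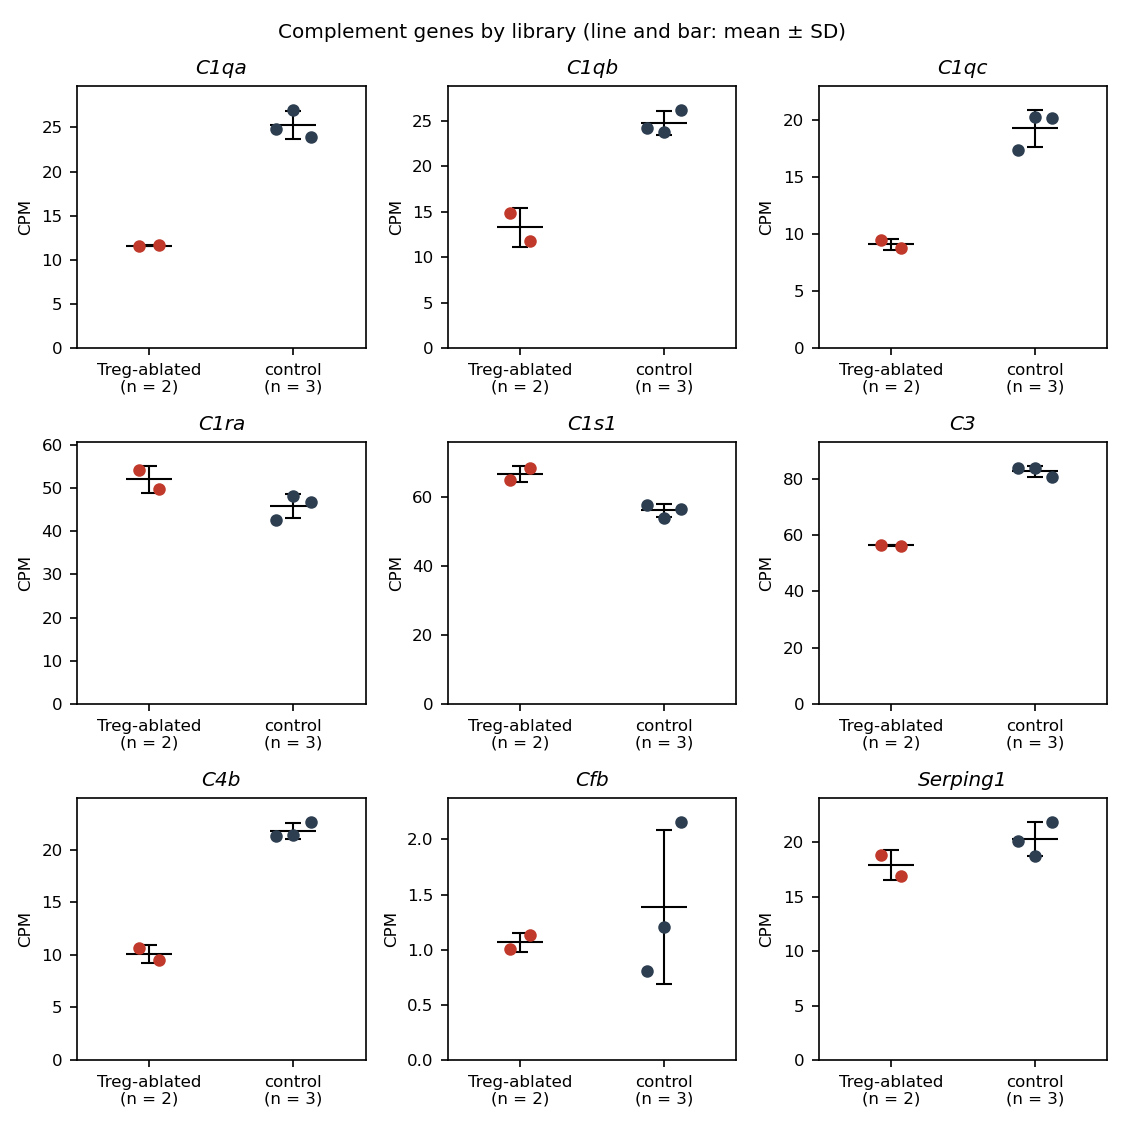
CPM of each of the 9 complement genes (vertical axes, starting at 0) in the 2 Treg-ablated and 3 control libraries, each point a library, with the mean and SD of the group. C1qa, C1qb, C1qc, C3 and C4b lie lower in both Treg-ablated libraries than in any control library, C1ra and C1s1 lie higher, and the groups overlap for Cfb and Serping1.

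C1q is built of 3 chains, A, B and C, whose genes C1qa, C1qc and C1qb lie side by side on the minus strand of chromosome 4, between 136880129 and 136898803 (GRCm38). C1qa (ENSMUSG00000036887), the A chain gene, had 11.6 and 11.6 CPM in Treg-ablated libraries, against 24.8, 27.0 and 23.9 CPM in control libraries. The Treg-ablated values were nearly equal, and both lay below every control value. It averaged 11.6 ± 0.0115 CPM in Treg-ablated and 25.2 ± 1.59 CPM in control libraries (SD, n = 2 and n = 3), which is -1.12 on the log2 scale (SE 0.103, adjusted p = 0.000149). C1qb (ENSMUSG00000036905), the B chain gene, had 14.8 and 11.8 CPM in Treg-ablated and 24.3, 23.7 and 26.2 CPM in control libraries, and the change was the smallest of the 3 at -0.89 (SE 0.116, adjusted p = 0.000868). Treg-ablated replicate 1 stood above replicate 2 for this chain, and the groups did not overlap. C1qc (ENSMUSG00000036896), the C chain gene, had 9.46 and 8.75 CPM in Treg-ablated and 17.4, 20.2 and 20.2 CPM in control libraries (log2 fold change -1.08, SE 0.118, adjusted p = 0.000364). All 3 chains kept their call when any 1 library was left out.

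Per kilobase, the RNA of C1qa and C1qb stood on either side of a 1 to 1 ratio, while C1qc stood below C1qb in every library. Such ratios rest on the annotated exon length, 1931 bases for C1qc against 1040 for C1qa and 1088 for C1qb. In CPM, which does not use this length, C1qc was closer to C1qb. Per kilobase of exon, C1qa had 0.819 and 1.03 times the level of C1qb in Treg-ablated libraries and 1.07, 1.19 and 0.954 times in control libraries. C1qc had 0.36 and 0.419 times the level of C1qb in Treg-ablated libraries and 0.404, 0.48 and 0.435 times in control libraries. Both ratios overlapped between the groups, so the proportions of the chains were not separated by ablation although the level of each fell.

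The region before the start site is shown for the C1q genes because they fell together. The RefSeq promoter table (GRCm38.p6) matched 5 of the 9 members: C1qb, C1qc, C1ra, C1s1 and C3. The 250 bases before each start were searched on both strands for 4 motifs: the interferon-γ activated site TTCNNNGAA, the interferon-stimulated response element (ISRE), the PU.1 element GAGGAAGT and an NF-κB element. Capitals mark a match, which is a description of letters and not a binding site. The windows are chr4:136886201-136886450 for C1qb and chr4:136892915-136893164 for C1qc, both on the minus strand and written 5′ to 3′.
C1qb: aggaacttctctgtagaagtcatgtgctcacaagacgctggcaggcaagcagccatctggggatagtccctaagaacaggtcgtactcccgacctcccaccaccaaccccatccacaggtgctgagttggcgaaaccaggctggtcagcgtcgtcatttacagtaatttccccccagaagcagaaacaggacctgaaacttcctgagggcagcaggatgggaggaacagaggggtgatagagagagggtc
C1qc: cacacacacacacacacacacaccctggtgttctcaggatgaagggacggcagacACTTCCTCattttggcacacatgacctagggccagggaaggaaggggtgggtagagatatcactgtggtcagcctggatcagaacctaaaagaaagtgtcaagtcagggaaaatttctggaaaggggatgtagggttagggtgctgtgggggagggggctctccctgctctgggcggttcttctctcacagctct
C1qc held the PU.1 letters on the opposite strand, starting at position -195 from the RefSeq start site, and no match overlapped another. The counted Ensembl gene C1qc reaches 136893065, so part of this window lies inside it. The match is nearer to the start of that gene. PU.1 is a transcription factor of myeloid cells, and 2.44% of all 32851 windows of this length held these letters. The interferon-γ activated site letters stood in 7.02% of all windows, those of the ISRE in 2.98% and those of NF-κB in 0.356%, and in none of the 6 windows of the members.

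The protease genes of the C1 complex were at or above their control levels, unlike the C1q chains. C1ra (ENSMUSG00000055172, chromosome 6, 124512405 to 124523443), which encodes C1r, had 54.2 and 49.8 CPM in Treg-ablated libraries, against 42.7, 48.1 and 46.7 CPM in control libraries. The groups did not overlap, but the log2 fold change of 0.18 (SE 0.0805) did not pass (adjusted p = 0.122). C1s1 (ENSMUSG00000038521, chromosome 6, 124530345 to 124542359), which encodes C1s, had 64.9 and 68.2 CPM in Treg-ablated and 57.5, 53.9 and 56.5 CPM in control libraries. It averaged 66.5 ± 2.35 CPM in Treg-ablated and 56.0 ± 1.87 CPM in control libraries (SD, n = 2 and n = 3), which is 0.25 higher on the log2 scale (SE 0.0701, adjusted p = 0.0255). The call depended on single libraries: without Treg-ablated replicate 2 and without control replicate 2 the adjusted p was 0.108 and 0.126, and it was 0.0656 in DESeq2. With an offset for GC content, 47.0% in C1s1 and 59.5% in C1qa, the C1s1 call also ended (adjusted p = 0.0608), while those of the C1q chains held.

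C1s1 is shown by the 250 bases before the more upstream of its listed starts, since it was the 1 member that passed as higher. The window is chr6:124542360-124542609 on the minus strand, and it held none of the 4 motifs.
C1s1: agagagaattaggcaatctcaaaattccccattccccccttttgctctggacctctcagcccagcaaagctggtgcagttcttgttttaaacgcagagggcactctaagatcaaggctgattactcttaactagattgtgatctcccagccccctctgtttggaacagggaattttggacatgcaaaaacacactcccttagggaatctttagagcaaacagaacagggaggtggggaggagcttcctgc
The near-identical copies of these genes took few counts. C1rb had 6 and 8 counts in Treg-ablated and 6, 10 and 5 in control libraries, and C1s2 had 1 and 0 counts in Treg-ablated and 0, 0 and 0 in control libraries. Of the exon bases of C1s2 78.3% are shared with another annotated gene, and of those of C1s1 18.4% with Gm16567 on the other strand, which had 0 counts in every library. Counting used no strand option, so a fragment in such shared bases could be assigned to no gene. The level per kilobase of C1s1 may therefore be understated in every library, which touches each ratio and order that uses it.

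The balance of C1q to its proteases differed between the groups. The summed level of the 3 C1q chains, in CPM per kilobase, was 0.762 and 0.689 times that of C1ra plus C1s1 in Treg-ablated libraries. In control libraries it was 1.69, 1.75 and 1.70 times. The difference of the mean log2 ratios was -1.24, with a pooled SD of 0.0632 between libraries of a group, and it is given with no test because the split of the members was proposed with these results known. The ratio needs no scaling between libraries, but it was not recomputed with an offset for GC content. With that offset the log2 fold changes of C1qa, C1qb and C1qc were -0.98, -0.74 and -0.93. Those of C1ra and C1s1 were 0.22 and 0.19. Against all 6 other members, the mean log2 CPM of the C1q chains was lower by 0.66 and 0.77 in Treg-ablated libraries. In control libraries it was 0.10 and 0.11 higher in replicates 1 and 2 and 0.08 lower in replicate 3.

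**Figure D2:**
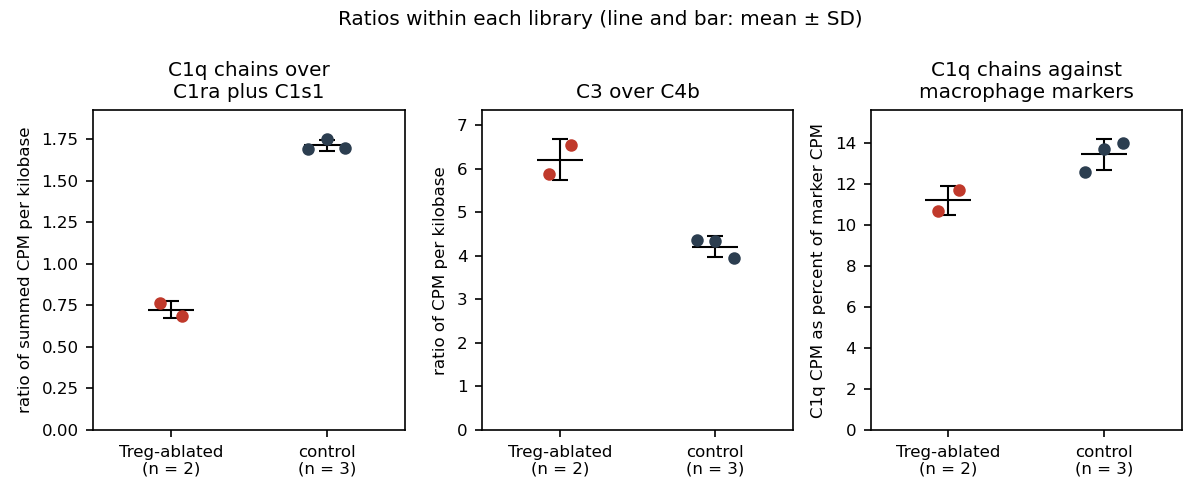
Ratios within each library, each point a library with the mean and SD of its group: the C1q chains over C1ra plus C1s1 and C3 over C4b, both from CPM per kilobase of exon, and the summed CPM of the C1q chains as a percentage of that of 19 macrophage markers, which do not include them. The C1q to protease ratio is 0.762 and 0.689 in Treg-ablated libraries and at least 1.69 in control libraries. Lyz2 is the largest part of the macrophage marker sum in each library.

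C3, the component on which all complement pathways meet (ENSMUSG00000024164, chromosome 17, 57203970 to 57228136), had 56.5 and 56.1 CPM in Treg-ablated libraries, against 83.8, 83.8 and 80.5 CPM in control libraries. Libraries of a group were close together and the groups lay far apart. The mean was 56.3 ± 0.304 CPM in Treg-ablated and 82.7 ± 1.91 CPM in control libraries (SD, n = 2 and n = 3), and C3 fell by 0.55 on the log2 scale (SE 0.0677, adjusted p = 0.00063). C4b (ENSMUSG00000073418, chromosome 17, 34728380 to 34743882), which encodes the C4 that C1s cleaves, had 10.7 and 9.50 CPM in Treg-ablated and 21.3, 21.4 and 22.6 CPM in control libraries. C4b fell by 1.11 on the log2 scale (SE 0.106, adjusted p = 0.000202), against 1.12 for C1qa. Both calls held without any 1 library. Per kilobase, C3 had 5.88 and 6.54 times the level of C4b in Treg-ablated and 4.36, 4.34 and 3.94 times in control libraries, and the groups did not overlap.

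C4a, a close copy of C4b that encodes the sex-limited protein in mice, was low. It had 15 and 17 counts in Treg-ablated and 8, 14 and 7 counts in control libraries, and the log2 fold change of 0.90 (SE 0.355) did not pass (adjusted p = 0.0867). C4a made up 8.15% and 11.9% of the summed counts of both genes in Treg-ablated libraries (exact 95% binomial intervals 4.63 to 13.1% and 7.08 to 18.4%). In control libraries its share was 2.46%, 3.17% and 2.11% (intervals 1.07 to 4.79%, 1.75 to 5.27% and 0.852 to 4.30%). These intervals cover counting error only, and reads that fit both copies could be assigned to either or to none, so both values are uncertain. With the copies counted as 1 gene, a setting chosen after seeing the data, the log2 fold change of C4b was -0.99 (SE 0.1, adjusted p = 0.000258).

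Cfb (ENSMUSG00000090231, chromosome 17, 34856374 to 34862518) had 16 and 15 counts in Treg-ablated libraries and 12, 24 and 31 in control libraries. In CPM these were 1.01 and 1.13 against 0.806, 1.20 and 2.16, so the groups overlapped and the controls spread widely. Its log2 fold change was -0.36 (SE 0.407), which did not pass (adjusted p = 0.551), and it turned to 0.05 without control replicate 3. Of the exon bases of Cfb 79.5% also belong to the annotated gene Gm20547 on the same strand, which had 0 counts in every library. The recorded command sets no option that would count a fragment lying in more than 1 gene, and featureCounts by default assigns such a fragment to none. The value of Cfb therefore cannot be read as its full level, and the same holds for its neighbour C2, with 46.9% of its bases shared, 1.58 and 1.06 CPM in Treg-ablated and 1.41, 1.5 and 1.74 CPM in control libraries.

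Serping1 (ENSMUSG00000023224, chromosome 2, 84765387 to 84775444) had 18.8 and 16.9 CPM in Treg-ablated libraries and 20.1, 18.8 and 21.9 CPM in control libraries. The groups overlapped, and the log2 fold change was -0.17 (SE 0.106, adjusted p = 0.25). It did not pass under any of the 17 alternative settings. Several of these genes, Serping1, C1s1, C4b and Cfb among them, are known to be induced by interferon-γ in other cells. Of 12 interferon-γ response genes 11 passed as higher in the same libraries, with summed levels of 1832 and 1832 CPM in Treg-ablated and 832 to 859 CPM in control libraries. Any link between this response and the values of the complement genes was not tested.

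Per kilobase of exon, the order of the members differed between the groups. In Treg-ablated libraries C1s1 stood first at 21.3 ± 0.75 CPM per kilobase, followed by C1ra (17.4 ± 1.05), C1qb (12.2 ± 1.98), C1qa (11.2 ± 0.011), C3 (10.9 ± 0.0591), Serping1 (7.69 ± 0.594), C1qc (4.71 ± 0.259), C4b (1.77 ± 0.143) and Cfb (0.379 ± 0.0307) (SD, n = 2). Of neighbours in this order, C1qb and C1qa overlapped. In control libraries C1qa stood first at 24.3 ± 1.53 CPM per kilobase, followed by C1qb (22.7 ± 1.19), C1s1 (17.9 ± 0.597), C3 (16.1 ± 0.372), C1ra (15.4 ± 0.954), C1qc (9.98 ± 0.843), Serping1 (8.72 ± 0.667), C4b (3.82 ± 0.132) and Cfb (0.492 ± 0.246) (SD, n = 3). Here C1qa overlapped with C1qb, C3 with C1ra, and C1qc with Serping1.

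**Figure D3:**
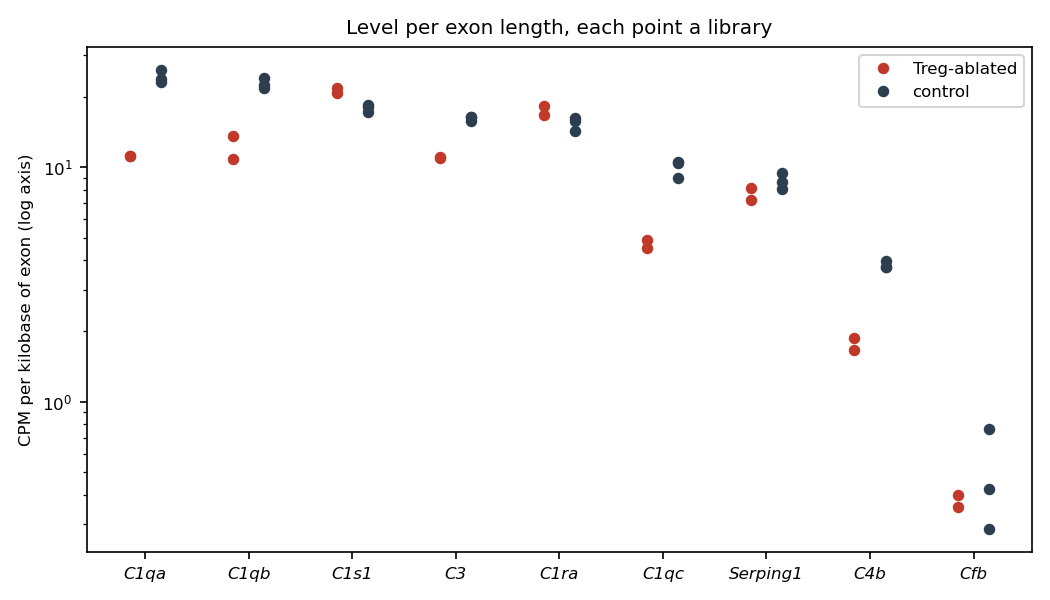
CPM per kilobase of exon (log axis) of the 9 complement genes, ordered by their mean in control libraries, with Treg-ablated libraries left and control libraries right for each gene, each point a library. C1s1 is highest in Treg-ablated libraries and C1qa and C1qb are highest in control libraries.

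Marker genes of macrophages and of other cell types moved in the same libraries as C1q. Of 18 macrophage markers tested, a list without the C1q genes, 12 passed as lower and 6 did not pass, with a median log2 fold change of -0.68. Their summed level was 335 and 275 CPM in Treg-ablated libraries, against 526, 516 and 503 CPM in control libraries. Lyz2 was the largest part of each sum, at 127 and 99.0 CPM in Treg-ablated and 205, 200 and 197 CPM in control libraries. Its log2 fold change was -0.82, so ratios to the sum depend much on this gene. Csf1r, which encodes the CSF-1 receptor, had 22.3 and 20.5 CPM in Treg-ablated and 52.5, 50.2 and 44.2 CPM in control libraries (log2 fold change -1.19), and Adgre1 fell by 0.74. The summed CPM of the C1q chains equalled 10.7 and 11.7% of the summed CPM of the macrophage markers in Treg-ablated and 12.6, 13.7 and 14% in control libraries, so this ratio was lower in both Treg-ablated libraries than in any control library. Against single markers, per kilobase, the result depended on the marker. The C1q chains had 5.42 and 5.0 times the level of Adgre1 in Treg-ablated and 6.12, 6.39 and 6.52 times in control libraries, with no overlap. They had 2.16 and 2.10 times the level of Csf1r in Treg-ablated and 1.71, 1.89 and 2.12 times in control libraries, and here the groups overlapped. Of 22 fibroblast markers 13 passed as lower and 2 as higher, with a median log2 fold change of -0.44. Their summed levels were 15450 and 16360 CPM in Treg-ablated and 15550 to 18070 CPM in control libraries. Col3a1, which did not pass (log2 fold change 0.04), was the largest part of each sum. Of 16 T cell markers 15 passed as higher, with 65.2 and 72.7 CPM in Treg-ablated and 19.6 to 23.3 CPM in control libraries. The part of these changes in the complement results was not tested.

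The other genes of the complement system were taken from a list of 59 by role, 50 of them no members. Of these 50, 21 passed the low-count filter, and 12 had 0 counts in every library, among them Mbl1, Mbl2, C6, C8a and C8b. Of the 21, 4 passed as lower in edgeR, against 12.3% of all genes, and 0 as higher, against 13.5%. The counts were also 4 and 0 in DESeq2 and in limma-voom. At an unadjusted p under 0.05, 3 were higher and 6 lower in edgeR, 0 and 5 in DESeq2, and 3 and 6 in limma-voom. The share of all genes under that unadjusted threshold was not determined, so these counts cannot be judged against it. The median log2 fold change of the 21 was -0.09.

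Receptors made up most of the 4. Cd93, a surface receptor of myeloid and endothelial cells once described as a C1q receptor, had 5.55 and 4.22 CPM in Treg-ablated and 11.9, 11.7 and 10.4 CPM in control libraries (log2 fold change -1.21, SE 0.149, adjusted p = 0.000679). C5ar1, the receptor for the C5a fragment, had 2.46 and 1.66 CPM in Treg-ablated and 5.44, 4.51 and 4.11 CPM in control libraries (-1.16, SE 0.227, adjusted p = 0.00528). C3ar1, the receptor for C3a, had 8.70 and 9.20 CPM in Treg-ablated and 14.2, 12.1 and 13 CPM in control libraries (-0.54, SE 0.12, adjusted p = 0.00923). For all 3 the groups did not overlap. The integrin subunits of complement receptors 3 and 4 did not pass, with log2 fold changes of -0.32 for Itgam, most of whose exon bases are shared, 0.06 for Itgax and -0.17 for Itgb2. Neither did C1qbp, which encodes a C1q-binding protein and was the most abundant listed gene at 203 and 188 CPM in Treg-ablated and 182, 183 and 191 CPM in control libraries.

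Masp1, a protease gene of the lectin pathway, was the other gene that fell. It had 49.8 and 68.6 CPM in Treg-ablated and 78.3, 82.0 and 82.0 CPM in control libraries, and fell by 0.45 on the log2 scale (SE 0.113, adjusted p = 0.0161). The Treg-ablated libraries differed widely, and Masp1 no longer passed once Treg-ablated replicate 1 was left out (adjusted p = 0.087) or once control replicate 2 was (adjusted p = 0.0798). Colec12, a collectin, did not pass (log2 fold change -0.09), nor did Cfp, the gene of properdin, which stabilises the alternative pathway enzyme (-0.18). The inhibitors Clu and Cr1l had log2 fold changes of 0.01 and 0.19 and did not pass. The terminal pathway was near the floor, with summed levels between 1.81 and 2.55 CPM over 7 genes.

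**Figure D4:**
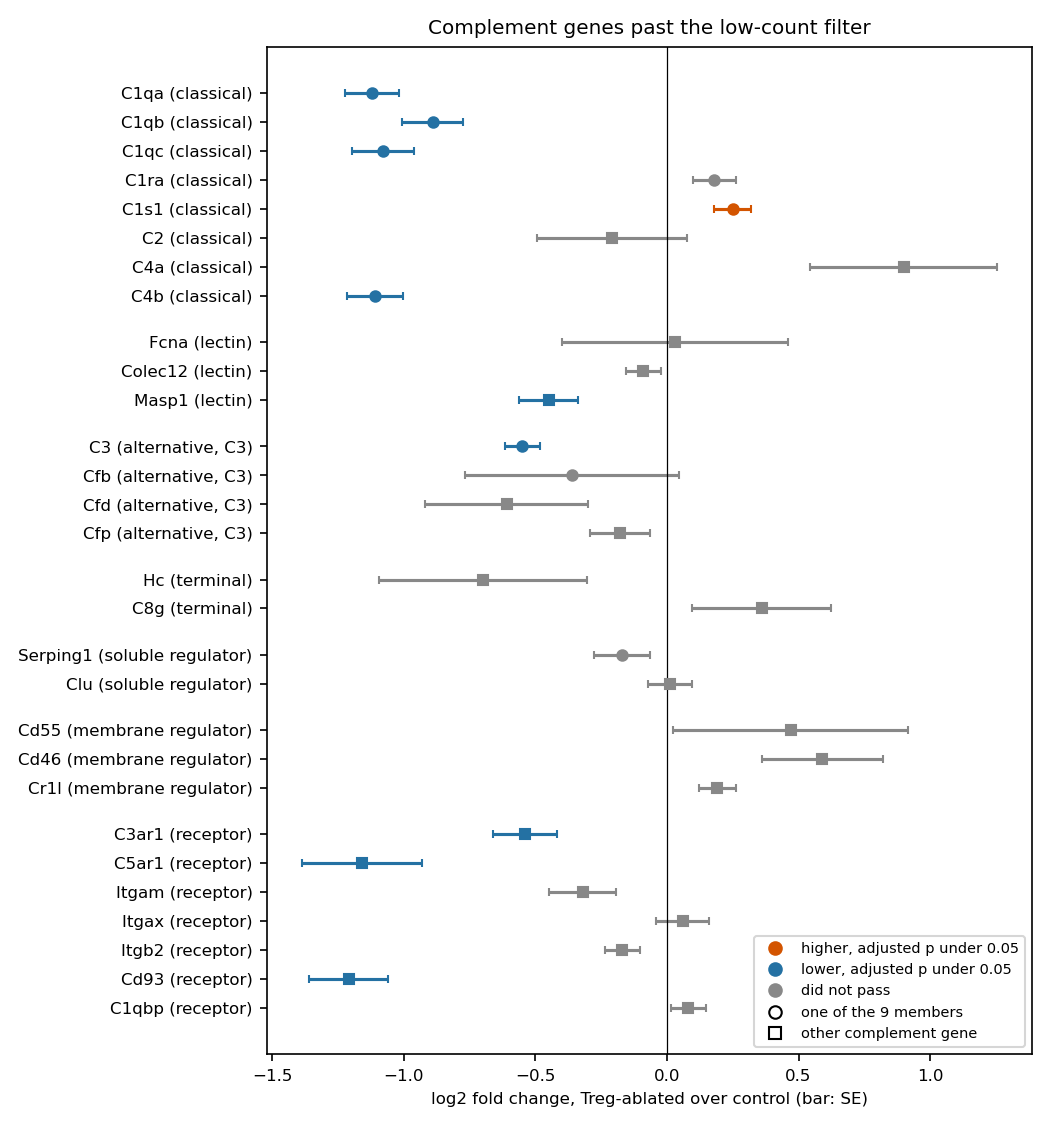
Log2 fold change, Treg-ablated over control, with its SE (bars) for 29 of the 30 listed complement genes that passed the low-count filter, grouped by role; circles are the 9 members, squares other genes, and colour gives the edgeR call. The C1q chains, C4b, Cd93 and C5ar1 lie at or below -0.89, whereas C1ra and C1s1 lie right of 0.

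Patterns like those of the members were sought among 9577 genes of at least 10 CPM on average, as the smallest root mean square difference of centred log2 CPM over the 5 libraries. Closest to the mean C1q profile was Stab1, a scavenger receptor gene of macrophages and endothelium, at 0.0394, followed by Cpxm1 (0.0634), Slc43a2 (0.0861), the matrix metalloproteinase gene Mmp2 (0.0933) and Pld4 (0.104). The C1q chains themselves lay 0.0504 (C1qc) to 0.101 (C1qb) from their mean. The log2 fold changes of these 5 genes ran from -1.03 to -0.86. Closest to the mean profile of C1ra and C1s1 were Dnajc25, Ube2d2a, Wipi1, Zyx and Inpp1, at 0.0132 to 0.0155, with log2 fold changes of 0.19 to 0.23, while C1ra and C1s1 each lay 0.0551 from it.

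**Figure D5:**
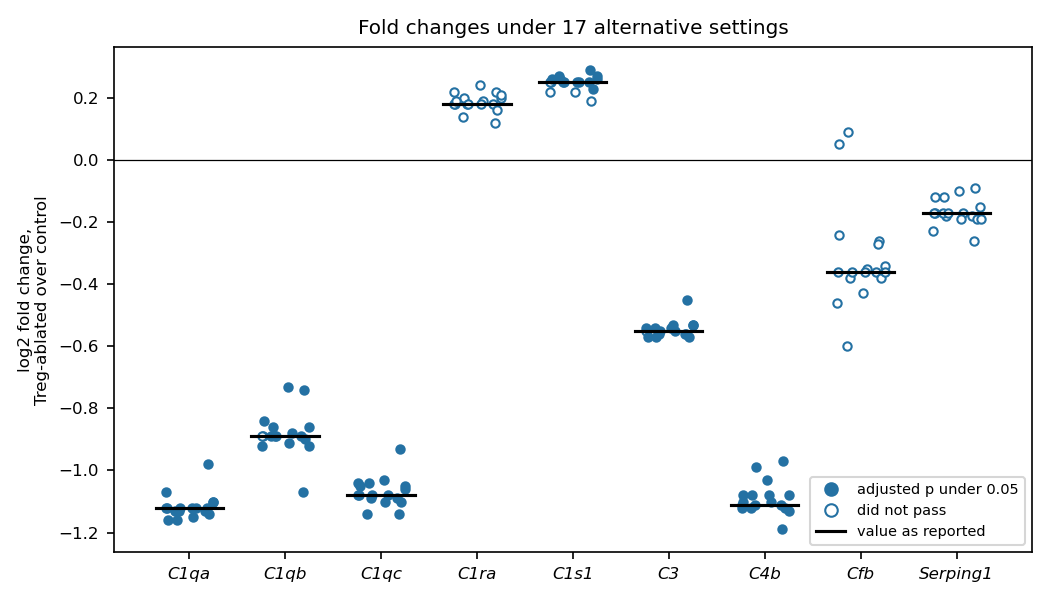
Log2 fold change of each member under 17 alternative settings (points, filled where the adjusted p was under 0.05) and as reported (black line). C1qa, C1qc and C4b are filled throughout, C1s1 is open in 6 settings, and only Cfb has points on both sides of 0.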

How the data were processed

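RNA-seq counts of 2 Treg-ablated and 3 control libraries were analysed, with groups and replicate numbers from the sample titles. Per the file headers, the deposited values are fragment counts from featureCounts 1.6.2, summed over the exons of each gene of GRCm38 (Ensembl 83, filtered), with no strand, overlap or multi-mapping option. The counts are whole numbers and not normalized. The exon length per gene, another column the authors deposited, was used for levels per kilobase. The submitters' processing notes also name Subread 1.6.2 and Trimmomatic 0.33.

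Symbols were joined by Ensembl identifier. Genes kept by filterByExpr (14580) were TMM-scaled, and the edgeR 4.0.16 quasi-likelihood test (R 4.3.3) was run without a block, with Benjamini-Hochberg adjustment over all of them. SEs were derived from the log2 fold change and the F statistic. The named genes are the 9 members, listed complement genes that passed or averaged at least 10 CPM, near-identical copies, and the 5 genes nearest in pattern. Of the listed genes 1 is counted but not reported here. The members and lists were chosen with earlier results of these data known. Alternatives were other scalings, filters and tests (DESeq2 1.42.0, limma-voom 3.58.1), a block, thinning, length and GC offsets, summed copies and leaving out each library. Libraries within a group were not duplicates (chi-square per degree of freedom between them 4.19 to 7.90). A count of 3 is 0.15 to 0.226 CPM per library, counting error only. On simulated counts over 14350 genes, 67, 67 and 66 genes were changed by folds of 1.5, 2 and 4. Recovery was 79.1%, 91% and 98.5%, and 7.25% of the calls were unchanged genes. The changed genes were drawn above a minimum level. They were far fewer than the 1971 higher and 1787 lower genes called in the data, so these rates need not hold there.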

Additional observations from a re-analysis of the deposited data

How the results depend on the processing

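Over the 17 alternatives, C1qa, C1qc and C4b kept their call, and C1ra and Serping1 did not pass in any. C1qb and C3 lost theirs when tested against a fold of 1.5. Under that test 98 genes were higher and 23 lower. Lower were 3 members and, in the whole list of 59 that includes them, 4 genes. At the same time 0 members and 0 listed genes were higher. C1s1, the 1 member and 1 listed gene called higher, lost its call there, in DESeq2, with the GC offset (chosen after seeing the data) and with the replicate block, so that 0 members and 0 listed genes were higher. With the gene length offset 3 listed genes were higher. Cfb turned to 0.09 with the replicate block and ranged from -0.60 to 0.05 when 1 library was left out. The replicate block left 1296 genes higher and 1116 lower, and C1s1 at an adjusted p of 0.133. The block used the numbers of the sample titles, in which same-numbered libraries deviated with correlations of -0.226 and -0.0213 across genes. The names of the deposited tables number the Treg-ablated libraries 2 and 3 instead, which gives correlations of 0.0213 and -0.199. The labels do not tie equal numbers, and neither numbering was taken as a pairing. Leaving out 1 library each, 812 to 1687 genes were higher and 554 to 1538 lower, fewest without control replicate 2, and 0 to 1 members and 0 to 1 listed genes were higher. The log2 ratio of C1q to C1ra and C1s1 ran from -1.31 to -1.17, both ends set by the Treg-ablated libraries. Leaving out a Treg-ablated library leaves 1, which is assumed to vary like the controls. Counts were low, at 6 to 31 per library, for Cfb, C2, C4a, Fcna, Cd55, Hc and C8g.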
